A study of Mus musculus with 27 samples.

Results

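The 10 genes described here carry the recovery of the photoresponse and its calcium feedback: the guanylate cyclases Gucy2e and Gucy2f, their activators Guca1a and Guca1b, recoverin (Rcvrn), the photoreceptor receptor kinase Grk1, the RGS9 complex (Rgs9, Rgs9bp and Gnb5) and the rod exchanger Slc24a1. They were picked by symbol, and each symbol matched 1 of the 38168 features in the table, whose values are reads scaled to each library's total (cpm). The study profiled RNA from whole retina across mouse development to follow the isoforms of a thyroid hormone receptor gene. All mice were C57BL/6J, no treatment is named, and the 27 libraries fell into 7 groups by age: embryonic day 14 (E14, n = 3), E17 (n = 3), postnatal day 1 (P1, n = 4), P6 (n = 3), P15 (n = 4), P28 (n = 4) and P60 (n = 6). Most libraries held the pooled retinas of several mice. Per the study's methods, 4 of the 6 P60 libraries came from single mice and the others from pools of 3 mice. The sources used here do not say which. Mice up to P1 were of mixed sex and later ones were males, so sex moved with age between P1 and P6. The part of sex cannot be told apart in any comparison of ages up to P1 with later ages.

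In background terms, light closes the cGMP-gated channels of the photoreceptor outer segment, and recovery needs every activated step to be turned off and cGMP to be made again. The kinase Grk1 phosphorylates the light-activated receptor so that arrestin can bind it, and the RGS9 complex speeds the hydrolysis of GTP by transducin, which shuts off phosphodiesterase. Calcium enters through the open channels and leaves through the sodium/calcium, potassium exchanger, so it falls in light. The fall frees recoverin from Grk1 and lets the activator proteins stimulate the retinal guanylate cyclases. The retina is made of several cell types, and in whole tissue more photoreceptors and more RNA per photoreceptor cannot be told apart.

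Promoter sequence was at hand for 7 of the 10 genes in the RefSeq table (GRCm38.p6), which covers 250 bases before to 50 bases after each start. The table had no entry for Guca1b, Rcvrn or Rgs9bp. The letters TAATCC, a core motif bound by the photoreceptor factors Crx and Otx2, were searched on both strands and found in 4 of the 7 windows, against 7.06% of all 32851 promoter windows of the same length. They lay in Gucy2e at base -42, in Gucy2f at bases -59 and -84, in Guca1a at base -57 and in Gnb5 at base -6, counted from the start site. The letters TGCTGA, part of a site bound by Maf family factors such as Nrl, were found in 2 of the 7 windows (Grk1 and Rgs9), against 19.5% of all windows. A match of letters is a description of the sequence and no measurement of binding. The 100 bases before the start of the 4 genes with TAATCC are shown from 5′ to 3′ on the gene's strand, to let the motif be seen, with the motif or its reverse complement GGATTA in capitals.
Gucy2e (chr11:69237023-69237122, minus strand): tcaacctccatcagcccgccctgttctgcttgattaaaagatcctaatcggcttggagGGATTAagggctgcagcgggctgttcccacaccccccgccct
Gucy2f (chrX:142196937-142197036, minus strand): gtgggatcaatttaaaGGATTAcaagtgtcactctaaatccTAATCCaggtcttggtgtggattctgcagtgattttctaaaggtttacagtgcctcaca
Guca1a (chr17:47400607-47400706, minus strand): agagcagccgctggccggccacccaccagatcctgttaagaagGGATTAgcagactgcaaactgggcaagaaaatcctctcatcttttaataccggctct
Gnb5 (chr9:75306188-75306287, plus strand): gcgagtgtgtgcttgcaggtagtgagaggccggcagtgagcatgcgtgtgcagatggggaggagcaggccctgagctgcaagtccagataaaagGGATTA

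Summed over the features, the 27 libraries held 7076646 to 11330762 reads (median 7968785), as recovered from the cpm values. These are reads counted in features, fewer than the sequencing depth that the study gives. In cpm, 1 read was worth 0.0882 to 0.141, so values under 1 cpm rest on a few reads. Markers of photoreceptors (Nrl, Crx, Gnat1, Arr3) summed to 86.6 to 89.8 cpm at E14 and to 7216 to 8044 cpm at P60, with none at 0 in all libraries of an age. A summed list of 6 pigment epithelium markers was at 3.79 to 6.7 cpm at E14, 54.7 to 97.2 cpm at P15 and 22.6 to 85.2 cpm at P60, and its part in the results was not tested. Lens markers stayed at 2.26 to 10.99 cpm and blood markers at 10.7 to 50.3 cpm. Cell types of the retina itself moved too. Progenitor markers summed to 3529 to 3656 cpm at E14, 2718 to 3106 cpm at P1, 66.5 to 91.1 cpm at P6 and 1.05 to 6.32 cpm at P60, so they dropped over the same step at which all 10 genes rose. Between E14 and P60, bipolar markers went from 289.8 to 312 cpm to 1253 to 1681 cpm and Muller glia markers from 260.3 to 266 cpm to 775 to 979 cpm. Ganglion and amacrine markers went from 515 to 567 cpm at E17 to 234.6 to 273 cpm at P60. Their part in the results was not tested. P60 replicates 1 and 2 stood apart, since their profiles correlated more closely with the P28 libraries (mean r = 0.985 and 0.981) than with the other P60 libraries (mean r = 0.965 and 0.962), and differences between P60 and P28 are also given without them. Their chi-square of reads per degree of freedom was 7.63 to 19.28 against the other P60 libraries and 3.13 between them. Whether replicates 1 and 2 were the pooled P60 libraries is not given. Leaving them out may therefore also change the kind of library that is compared with P28. P60 replicate 6 leaned the same way by less (mean r = 0.975 against 0.973). P15 replicate 4 differed from the other 3 (chi-square 4.99 to 7.49, against 1.69 to 2.31 among them), and so did E17 replicate 2 (6.11 and 6.78, against 2.39 between the other 2). Without E17 replicate 2 the count of calls among the 10 genes at P1 against E17 was 4 in place of 3.

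All 10 genes rose from embryonic retina (E14 and E17) to mature retina (the mean of P15, P28 and P60). The increases were very large for 8 of them, 309.8-fold to 1721-fold in mean cpm, and smaller for Rgs9 (22.5-fold) and Gnb5 (19.03-fold), which already had more reads in the embryo. The rise was concentrated between P1 and P15: each of the 10 genes rose between P1 and P6 and again between P6 and P15, and few changes passed the test at other steps. Log2(cpm + 1) was fitted by limma over the 31760 features that reached 1 cpm in 3 or more libraries, and a change was called at a Benjamini-Hochberg adjusted p under 0.05 and a log2 fold change of at least 1. All 10 genes entered the fit.

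Against these calls, 14.9% of all features were higher in mature than in embryonic retina. In the 10 genes every mature library lay above every embryonic library, which held for 17.4% of all features. By step, 1 gene rose at E17 against E14 (Rgs9, with 2.90% of all features higher), 3 rose at P1 against E17 (Gucy2e, Rcvrn and Grk1, with 1.23%), 10 at P6 against P1 (6.30%), 10 at P15 against P6 (4.74%), 1 at P28 against P15 (Guca1a, 0.164%) and 0 at P60 against P28 (0.0756%). At the last step 3 genes had an unadjusted p under 0.05 by limma, and edgeR and DESeq2 called 0. None of the 10 was lower at an unadjusted p under 0.05 at any step. Without the minimum fold, limma gave an adjusted p under 0.05 for 5, 7, 10, 10, 2 and 2 of the genes at these steps. Levels varied over the 7 ages in 10 of 10 genes by the F test of the same fit, as did 83.0% of all features. The median log2 fold change between mature and embryonic retina was 7.75 over the 10 genes and -0.06 over all features. These fold changes are on the log2(cpm + 1) scale, which understates the change of genes with few reads in the embryo.

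**Figure D1:**
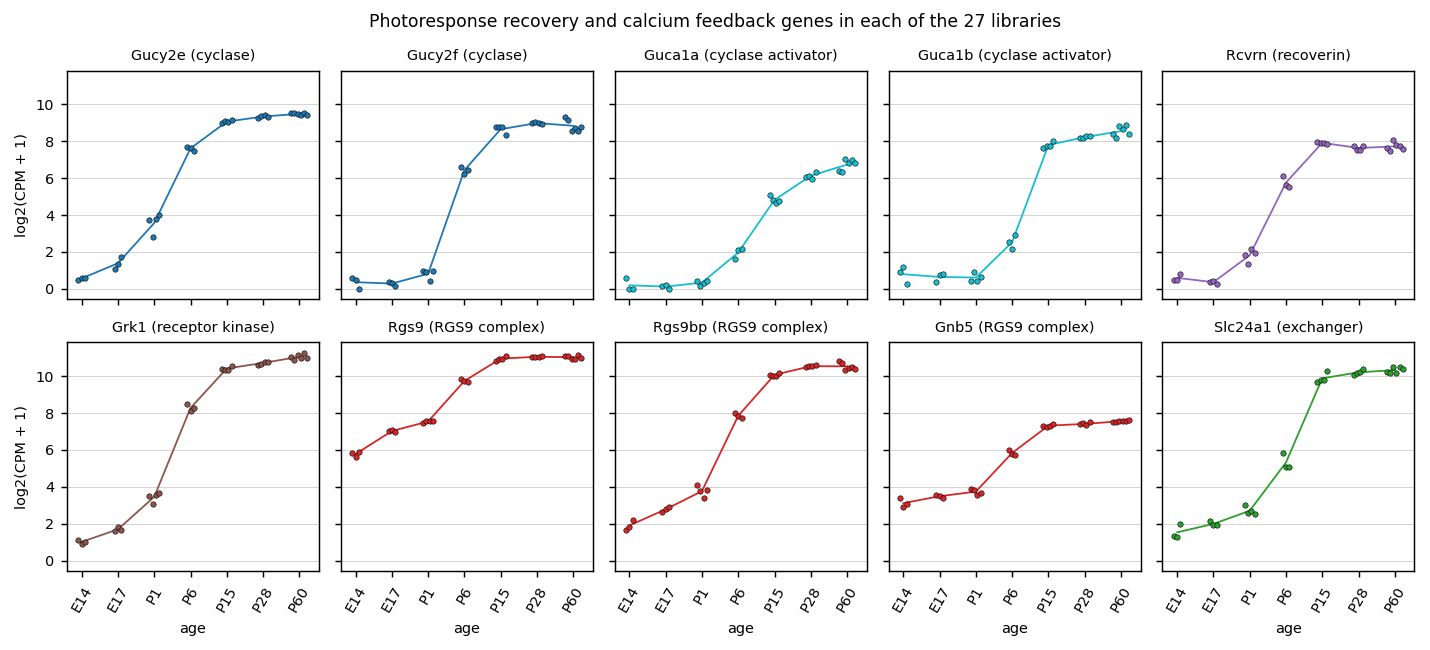
Each panel plots 1 gene in all 27 libraries (points, log2(cpm + 1) on the vertical axis, age on the horizontal axis, lines through the age means). All 10 genes climb between P1 and P15, and Guca1b, Guca1a and Slc24a1 are still low at P6.

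The retinal guanylate cyclases remake cGMP after a flash, and both rose steeply after birth. Gucy2e encodes the cyclase present in rods and cones. Its values were 0.40, 0.527 and 0.526 cpm at E14, 1.12, 1.59 and 2.28 cpm at E17 and 12.3, 5.92, 12.7 and 14.9 cpm at P1. Every P1 library lay above every embryonic one, and Gucy2e rose from E17 to P1 by 2.18 ± 0.16 on the log2 scale (± SE, limma adjusted p = 9.0e-12). It reached 207, 201 and 178 cpm at P6, 502, 542, 529.7 and 558 cpm at P15 and 621, 649, 676 and 634 cpm at P28. At P60 it had a lowest value of 671, a median of 722 and a highest value of 749 cpm. The step from P1 to P6 was 4.04 ± 0.16 and that from P6 to P15 was 1.45 ± 0.16 (limma adjusted p = 1.4e-19 and 1.1e-08). The P28 and P60 values overlapped slightly, and the difference of 0.15 ± 0.13 did not pass the test (limma adjusted p = 0.48). It was 0.12 without P60 replicates 1 and 2 (limma adjusted p = 0.53).

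Gucy2f encodes the second retinal cyclase, known from rods. It was read at 0.50, 0.422 and 0 cpm at E14, 0.307, 0.265 and 0.103 cpm at E17 and 0.981, 0.882, 0.339 and 0.946 cpm at P1, where no library held more than 8 reads. By P6 its values were 97.8, 74.6 and 85.1 cpm, and the rise from P1 was 5.61 ± 0.16 on the log2 scale, the largest of the 10 genes at that step (limma adjusted p = 8.1e-23). At P15 the libraries spread more than those of Gucy2e, with 432, 429, 435 and 318 cpm at P15 and 502, 519, 507 and 495 cpm at P28. P15 replicate 4 was the low one. The rise from P6 to P15 was 2.22 ± 0.16, and 2.33 without that library. At P60 the values had a lowest value of 372, a median of 423 and a highest value of 623 cpm. P60 replicates 1 and 2 were the highest at 623 and 569 cpm, above all P28 libraries, whereas the other 4 lay below them at 372 to 433 cpm. The difference between P60 and P28 was -0.15 ± 0.14 (limma adjusted p = 0.5), and without replicates 1 and 2 it was -0.34 (limma adjusted p = 0.03), short of the minimum fold. The embryonic libraries held 16 reads of Gucy2f in all, and the ratio of pooled reads between mature and embryonic retina was 1709.8, with an exact 95% interval of 1053 to 2992 for counting error only.

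The guanylate cyclase activating proteins are calcium sensors of the EF-hand family, and both of their genes were still at a few cpm at P6. They lie tail to tail on chromosome 17 in the GRCm38 annotation, Guca1b at chr17:47385393-47392967 on the plus strand and Guca1a at chr17:47394558-47400584 on the minus strand, with 1590 bases between their ends. Guca1a was read at 0.50, 0 and 0 cpm at E14, 0.102, 0.176 and 0 cpm at E17 and 0.368, 0.126, 0.226 and 0.355 cpm at P1, which is at most 5 reads in a library. At P6 it was at only 2.12, 3.35 and 3.45 cpm, at least 7.86-fold above a floor of 3 reads at P1 (limma adjusted p = 8.6e-09). It then rose by 2.85 ± 0.18 to P15, with 32.4, 27.3, 24.3 and 25.8 cpm, and by 1.30 ± 0.17 to P28, with 66.1, 68.5, 61.8 and 80.3 cpm (limma adjusted p = 8.1e-14 and 1.0e-05). Guca1a was the only one of the 10 genes called between P15 and P28, and with a pseudocount of 0.1 the adjusted p of that step was 0.062. At P60 it had a lowest value of 80.1, a median of 111 and a highest value of 133 cpm.

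The P60 libraries of Guca1a fell into a lower pair, replicates 1 and 2 at 82.7 and 80.1 cpm, and 4 higher ones from 110.1 to 133 cpm. Against P28 the difference was 0.61 ± 0.15 (limma adjusted p = 0.014), and without the pair it was 0.79 (limma adjusted p = 1.3e-04), both short of the minimum fold. The limma adjusted p was 0.24 with a pseudocount of 0.1, 0.15 in a fit of these ages alone and 0.077 with a replicate block. From embryonic to mature retina the reads rose 555-fold, with an exact 95% interval of 282 to 1287 that covers counting error only, since the embryonic libraries held 8 reads of Guca1a in all.

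Guca1b took most of its rise between P6 and P15. It was at 0.90, 1.27 and 0.21 cpm at E14, 0.307, 0.706 and 0.725 cpm at E17 and 0.368, 0.882, 0.339 and 0.592 cpm at P1, with no change past the test among these ages. At P6 it was still at 4.8, 3.46 and 6.48 cpm. By P15 the values were 198, 215, 216 and 259 cpm, and the rise of 5.26 ± 0.19 on the log2 scale was the largest of the 10 genes at that step (limma adjusted p = 4.9e-20). The libraries then lay at 288, 283, 308 and 308 cpm at P28. At P60 they had a lowest value of 285, a median of 366 and a highest value of 478 cpm, and the P28 and P60 ranges overlapped (limma log2 difference 0.33 ± 0.16, adjusted p = 0.16). With all P60 libraries that difference was 0.42 by edgeR (adjusted p = 0.035) and 0.43 by DESeq2 (adjusted p = 0.038). Without P60 replicates 1 and 2 it was 0.46 (limma adjusted p = 0.021). These differences were all short of the minimum fold.

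The kinase Grk1 and its calcium-dependent inhibitor recoverin both began to rise by P1. Grk1 was at 1.2, 0.844 and 1.05 cpm at E14, 2.04, 2.56 and 2.17 cpm at E17 and 10.3, 7.44, 10.9 and 11.9 cpm at P1, and it rose from E17 to P1 by 1.76 ± 0.11 on the log2 scale (limma adjusted p = 3.4e-13). It reached 358, 270.3 and 304 cpm at P6, 1358, 1311, 1299 and 1487 cpm at P15 and 1575, 1639.9, 1758 and 1736 cpm at P28. The groups did not overlap at these ages. At P60 it had a lowest value of 1849, a median of 2070.4 and a highest value of 2451 cpm, all above P28. On the log2(cpm + 1) scale Grk1 had the largest change of the 10 genes between embryonic and mature retina, 9.36 ± 0.07 (limma adjusted p = 9.3e-40), whereas in mean cpm Gucy2f had the larger fold (1721 against 1047). The P60 level exceeded the P28 level by 0.34 ± 0.09 (limma adjusted p = 0.021, short of the minimum fold) and by 0.39 without P60 replicates 1 and 2 (limma adjusted p = 0.0016). Over 38 alternatives the adjusted p ran from 0.0016 to 0.15 and was over 0.05 in 5. It was 0.06 with a replicate block, 0.15 in a fit of these ages alone, 0.074 and 0.061 without P28 replicate 1 or 2, and 0.057 without P60 replicate 5.

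Rcvrn was read at 0.40, 0.422 and 0.737 cpm at E14 and 0.307, 0.353 and 0.207 cpm at E17, then at 2.58, 1.51, 3.51 and 2.84 cpm at P1, a rise of 1.46 ± 0.16 (limma adjusted p = 3.3e-08). It was at 68.8, 49.1 and 44.4 cpm at P6 and already at 251, 239, 239 and 231 cpm at P15. The P28 libraries, at 211, 179.7, 186 and 216 cpm, lay below all P15 libraries. This difference of -0.28 ± 0.14 did not pass the test (limma adjusted p = 0.38), and in a fit of P15 and P28 alone its adjusted p was 0.029. That limma fit also gave an adjusted p under 0.05 for rises of Gucy2e (0.010), Gucy2f (0.041), Guca1b (0.0048) and Grk1 (0.013). Rises of Guca1a and Rgs9bp were under 0.05 both in that fit and in the fit of all ages. All of these changes but that of Guca1a were short of the minimum fold. At P60 Rcvrn had a lowest value of 179, a median of 203 and a highest value of 271 cpm. Its difference between P60 and P28 was 0.08 ± 0.13 (limma adjusted p = 0.71) and 0.17 without P60 replicates 1 and 2 (limma adjusted p = 0.37). Over all 6 P60 libraries recoverin was the only one of the 10 genes whose mean at P15 was above its mean at P60, and without replicates 1 and 2 Gucy2f joined it, at 101%. Rcvrn lies at chr11:67695326-67703333 on the plus strand, inside the span of Glp2r on the opposite strand. Glp2r, which encodes a peptide hormone receptor, read at 62.6% to 70.8% of Rcvrn at P15 and at 99.9% to 124% at P28. At E14, E17 and P1, where both genes were low, the median percent was 150%, 167% and 162%. Whether counting used the strand is not given in the sources used here, so reads from the overlap cannot be told apart.

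In the RGS9 complex, Rgs9 and Gnb5 were well above the floor of 3 reads in every embryonic library. Rgs9, the GTPase accelerating subunit, was at 56, 47.5 and 58.6 cpm at E14 and 130.5, 133 and 124 cpm at E17, and it was the only one of the 10 genes called at that step, with a rise of 1.25 ± 0.08 on the log2 scale (limma adjusted p = 6.7e-14). It had 175, 189, 191 and 187 cpm at P1 and 908, 841 and 808 cpm at P6. None of these 4 groups overlapped. From P15 on no change passed the test, with 1816, 1923, 1962 and 2207 cpm at P15, 2100.5, 2096, 2124 and 2139 cpm at P28 and a lowest value of 1909, a median of 2112 and a highest value of 2233 cpm at P60. Its difference between P60 and P28 was -0.02 ± 0.06 (limma adjusted p = 0.82) and -0.06 without P60 replicates 1 and 2 (limma adjusted p = 0.47). Rgs9 also has a long brain form, and the table sums the whole gene.

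Rgs9bp, the membrane anchor that holds the complex in the outer segment, started lower, at 2.2, 2.53 and 3.68 cpm at E14, 5.21, 6.09 and 6.42 cpm at E17 and 16.2, 12.9, 9.39 and 13 cpm at P1. It was at 259, 224 and 209.6 cpm at P6, at 1049, 1036, 1044 and 1170.3 cpm at P15 and at 1447, 1474, 1489.9 and 1524 cpm at P28. All P28 libraries were above all P15 libraries, a difference of 0.47 ± 0.12 (limma adjusted p = 0.025, short of the minimum fold, and over 0.05 when any of 7 of these 8 libraries was left out, up to 0.078). The P60 libraries divided as those of Gucy2f did, with replicates 1 and 2 at 1798 and 1685 cpm and the other 4 from 1309 to 1418 cpm. The difference between P60 and P28 was -0.0039 ± 0.11 (limma adjusted p = 0.99), and -0.12 without that pair (limma adjusted p = 0.38).

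Gnb5, the G protein beta subunit that stabilizes Rgs9 and the related R7 proteins in many neurons, had the smallest log2 fold change of the 10 genes between embryonic and mature retina, 4.12 ± 0.06 (limma adjusted p = 8.4e-32). Its values were 9.4, 6.43 and 7.47 cpm at E14, 10.8, 10.2 and 9.73 cpm at E17 and 13.7, 13.5, 10.9 and 11.7 cpm at P1, with ranges that lay close together without overlap (log2 differences of 0.37 and 0.25, limma adjusted p = 0.016 and 0.12). They were 63.9, 53.5 and 51.7 cpm at P6, 159, 151, 157 and 166 cpm at P15 and 165, 173, 159.9 and 179 cpm at P28. At P60 Gnb5 had a lowest value of 181, a median of 187 and a highest value of 193 cpm, all above P28 but with a difference of only 0.14 ± 0.08 (limma adjusted p = 0.25), or 0.17 without P60 replicates 1 and 2 (limma adjusted p = 0.15). With all P60 libraries the difference was 0.22 by DESeq2 (adjusted p = 0.031), short of the minimum fold. The annotation places antisense transcripts over Gnb5. Unlike Glp2r, they are not among the features of the table. Whether reads from them were counted in Gnb5 cannot be told, since the use of strand is not given.

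Slc24a1, the exchanger that extrudes calcium from the rod outer segment, took its larger step after P6, as Guca1b did. It was at 1.5, 1.48 and 2.95 cpm at E14, 3.37, 2.82 and 2.8 cpm at E17, 7.11, 4.92, 5.54 and 4.73 cpm at P1 and still only 55.2, 32.1 and 33.4 cpm at P6. By P15 the values were 806, 892, 871 and 1248 cpm, of which P15 replicate 4 was the highest. The rise from P6 to P15 was 4.56 ± 0.16 on the log2 scale (limma adjusted p = 7.5e-20) and 4.42 without that library. It had 1069, 1131, 1206 and 1324 cpm at P28 and a lowest value of 1150.1, a median of 1269 and a highest value of 1463 cpm at P60, and neither later step passed the test. The difference between P60 and P28 was 0.12 ± 0.14 (limma adjusted p = 0.6) and 0.18 without P60 replicates 1 and 2 (limma adjusted p = 0.35).

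**Figure D2:**
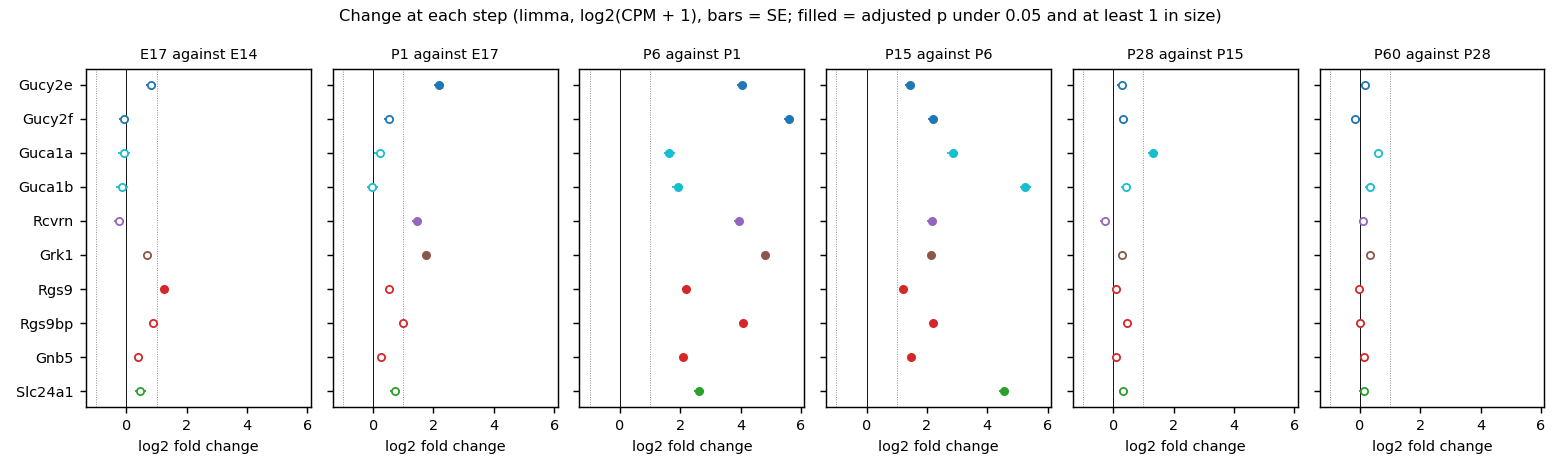
Each panel gives 1 step between neighboring ages, with the limma log2 fold change of each gene on the horizontal axis (points, filled where called, error bars of 1 SE). Of the steps at P6 and P15, Guca1b and Slc24a1 have the larger change at P15 and 7 genes have it at P6, while for Guca1a it is larger at P15 on this scale but at P6 by edgeR and DESeq2 on the reads.

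Scaled to each gene's own P60 mean, the 10 genes spread widely at P6. Rgs9 had reached 40.9% of its P60 mean by P6, Gnb5 30.1%, Gucy2e 27.3%, Rcvrn 25.6%, Gucy2f 18.5%, Rgs9bp 15.5% and Grk1 14.6%. Slc24a1, at 3.13%, Guca1a, at 2.77%, and Guca1b, at 1.3%, were far lower. By P15 Rcvrn stood at 114% of its P60 mean, Rgs9 at 94.9%, Gucy2f at 86.7%, Gnb5 at 84.4%, Gucy2e at 74.4%, Slc24a1 at 74.1%, Rgs9bp at 72.1% and Grk1 at 64.1%. The activators were the lowest, Guca1b at 58.6% and Guca1a at 25.6%. Without P60 replicates 1 and 2 the percentages at P6 ran from 1.19% (Guca1b) to 41.9% (Rgs9), and Guca1a was again the lowest at P15, at 22.8%. These percentages describe the order, and only the partner pairs were tested against each other.

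**Figure D3:**
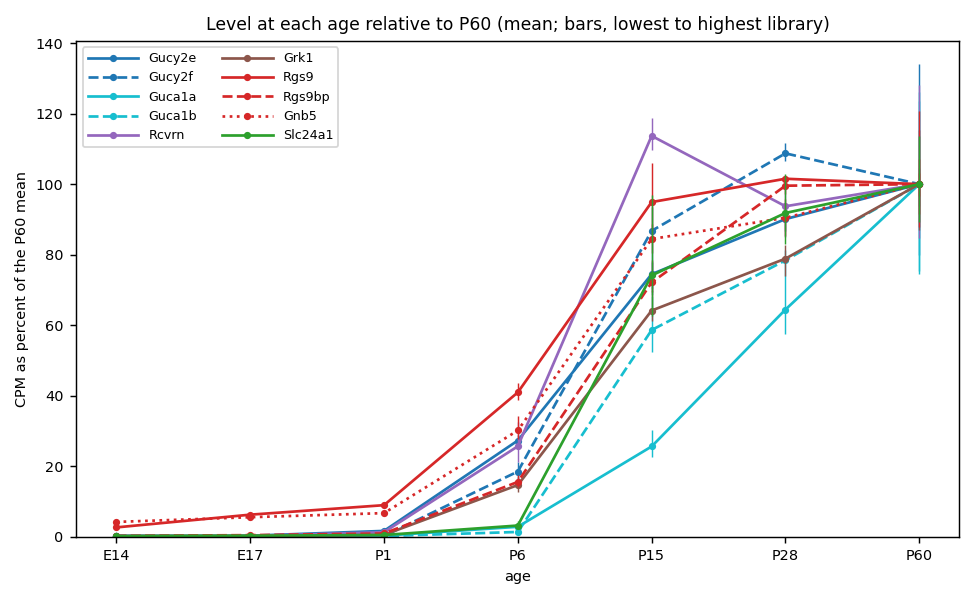
Lines give the mean of each of the 10 genes at each age as a percent of its own P60 mean (vertical axis), with bars from the lowest to the highest library. At P6 the lines run from 1.3% (Guca1b) to 40.9% (Rgs9), and Guca1a stays the lowest at P15, at 25.6%.

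Partner genes were compared within each library as the log2 ratio of their values with 1 cpm added to each. These are ratios of cpm with no correction for length, so only their change over age is read and not which gene was more abundant. Of 10 exact two-sided permutation tests over libraries, with Benjamini-Hochberg adjustment over the 10, 7 had an adjusted p under 0.05. The smallest p these tests allow is 0.00294 for 14 mature libraries against 3 at P6 and 0.0095 for 6 at P60 against 4 at P15. The 14 mature libraries were pooled over P15, P28 and P60. The SE and p of that contrast therefore also hold the differences between these ages. The log2 ratio of Gucy2e to Gucy2f was 1.18 ± 0.20 at P6 (SD, n = 3), and it differed in mature retina by -0.69 ± 0.14 (SE, exact p = 0.0029, adjusted p = 0.0073). Between P15 and P60 that ratio moved by 0.24 ± 0.18 (exact p = 0.22, adjusted p = 0.22), with overlapping groups.

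The log2 ratio of Guca1a to Guca1b was -0.56 ± 0.46 at P6, -2.97 ± 0.30 at P15, -2.09 ± 0.16 at P28 and -1.81 ± 0.15 at P60. The change from P6 to mature retina was -1.66 ± 0.30 (exact p = 0.0029, adjusted p = 0.0073), and that from P15 to P60 was 1.16 ± 0.16 in the other direction (exact p = 0.0095, adjusted p = 0.014). Neither contrast had overlapping libraries.

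Within the RGS9 complex, the log2 ratio of Rgs9 to its anchor Rgs9bp was 1.88 ± 0.07 at P6, against 0.88 ± 0.06 at P15, 0.51 ± 0.02 at P28 and 0.49 ± 0.14 at P60. The ratio changed by -1.28 ± 0.07 from P6 to mature retina (exact p = 0.0029, adjusted p = 0.0073) and by -0.39 ± 0.06 from P15 to P60 (exact p = 0.0095, adjusted p = 0.014). The ratio of Rgs9 to Gnb5 was 3.90 ± 0.08 at P6 and 3.47 ± 0.11 at P60, with changes of -0.34 ± 0.06 from P6 to mature retina (exact p = 0.0029, adjusted p = 0.0073) and -0.17 ± 0.06 from P15 to P60 (exact p = 0.048, adjusted p = 0.059). Grk1 rose relative to Rcvrn from P15, at 2.50 ± 0.12, to P60, at 3.33 ± 0.17, a change of 0.83 ± 0.09 (exact p = 0.0095, adjusted p = 0.014). From P6 to mature retina that ratio moved by 0.51 ± 0.16, which missed the threshold (exact p = 0.056, adjusted p = 0.062). By age its mean was 2.52 at P6, close to that at P15, and 3.08 at P28, so this contrast joins unlike ages. The reads of Rcvrn carry the overlap with Glp2r described above. When P60 replicates 1 and 2 were left out, 7 of the 10 tests again had an adjusted p under 0.05.

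**Figure D4:**
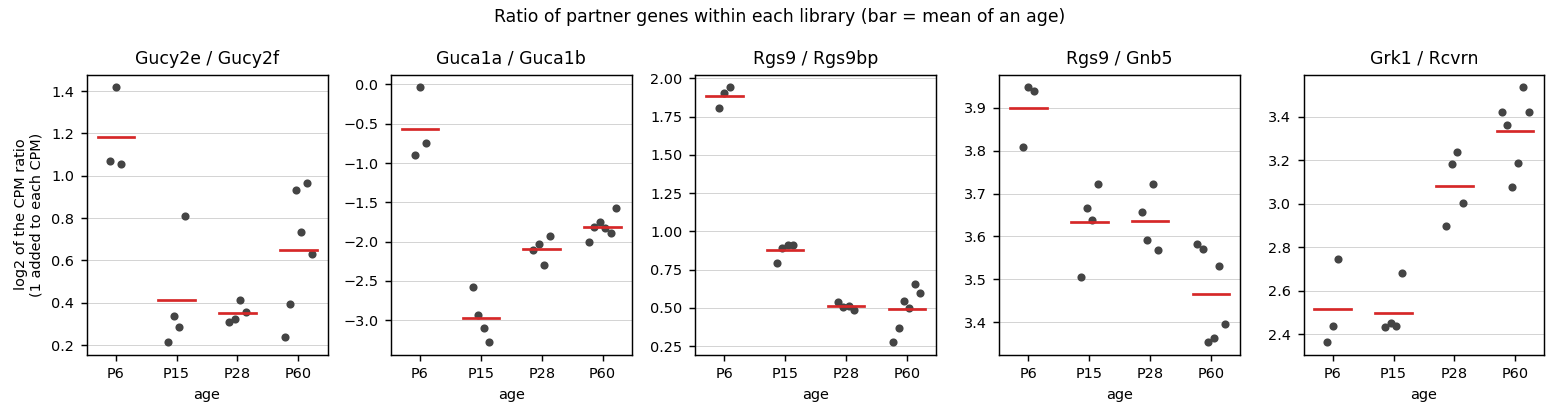
Each panel plots the log2 ratio of 2 partner genes in every library from P6 to P60 (points) with the age mean (bars), each panel on its own vertical axis. The ratio of Guca1a to Guca1b drops from P6 to P15 and climbs again to P60. Among the ages plotted, that of Rgs9 to Rgs9bp lies highest at P6. At earlier ages, not plotted, it was higher still, with means of 3.87 at E14, 4.24 at E17 and 3.77 at P1.

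Levels of different genes were compared per length, as cpm per kb of merged exons in the GRCm38 annotation. At P60 (n = 6, mean ± SD) Rgs9 was the highest at 326 ± 21.2 cpm per kb. Slc24a1 (247 ± 26.4), Grk1 (242 ± 24.3), Rgs9bp (226 ± 30.5) and Rcvrn (203 ± 32) followed, and the ranges of neighbors in this order overlapped. Guca1b came next at 155 ± 30.7 cpm per kb, its range overlapping those of Rcvrn and of Guca1a (123 ± 25.2). The lowest were Gucy2e (77.9 ± 3.48), Gnb5 (60.1 ± 1.58) and Gucy2f (57.3 ± 12.9), the last pair with overlapping ranges. The order depended on the length used: per kb of the longest coding transcript Guca1b stood at rank 4 in place of 6 and Grk1 at rank 2 in place of 3, while Rgs9 stayed first and Gucy2f last. Per kb of the shortest coding transcript Rgs9 was at 1195 cpm per kb, Gucy2e at 196 (rank 7), Gnb5 at 158 (rank 8), Guca1a at 123 (rank 9) and Gucy2f at 57.3 (rank 10). The values of Rgs9, Gucy2e, Gnb5 and Guca1b thus move by over 1.5 times with the length. Without P60 replicates 1 and 2 Rcvrn (215) and Rgs9bp (207) changed places.

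The other genes of phototransduction were read as lists. Of 8 rod activation genes, 8 rose from embryonic to mature retina (14.9% of all features were higher), with a median log2 fold change of 8.73, or 8.82 with Cnga1 at the bound that 3 embryonic reads allow. Among them were the phosphodiesterase subunit Pde6a (10.14), rod transducin (Gnat1, 9.97) and the channel subunit Cngb1 (8.95). Of 9 cone activation genes, 7 rose, with a median of 2.87. The named cone genes were the phosphodiesterase inhibitory subunit Pde6h (5.31), the short-wave opsin Opn1sw (4.32), the transducin beta subunit Gnb3 (3.23) and the medium-wave opsin Opn1mw, which held at most 2 reads in any embryonic library and rose at least 129-fold. Of 7 other shutoff and adaptation genes, 5 rose, with a median of 3.2. They included rod arrestin (Sag, 8.06), phosducin (Pdc, 6.29), cone arrestin (Arr3, 5.58) and the cone exchanger Slc24a2 (3.2).

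At P6 the median gene of the 10 recovery and feedback genes was at 17% of its P60 mean, against 36.9% for rod activation, 54.1% for cone activation and 78.9% for the other shutoff genes. Without P60 replicates 1 and 2 these medians were 19.2%, 35.7%, 51% and 73.5%. The lists overlapped widely. Rod transducin (Gnat1) was at 1.24% and Opn1mw at 1.52%, near the values of Guca1b and Guca1a, whereas phosducin (Pdc) was already at 110.5%. No difference between the lists was tested.

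**Figure D5:**
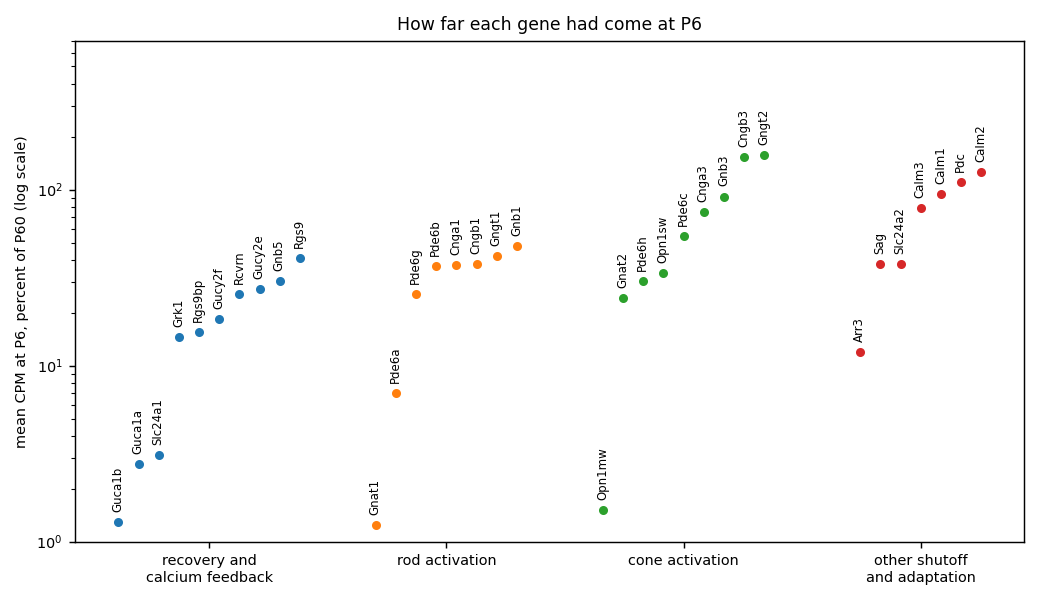
Each point is 1 gene, placed by its mean at P6 as a percent of its P60 mean, on a log axis, for the 10 recovery and feedback genes and the rod activation, cone activation and other shutoff lists. The medians of the lists, in that order, are 17%, 36.9%, 54.1% and 78.9%, and Guca1b, Gnat1 and Opn1mw are the lowest of their lists.

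Relatives of the 10 genes in the same protein families had a median change smaller than that of the 10. Of 30 such genes, 29 passed the filter on low values, 13 rose and 5 fell between embryonic and mature retina (14.9% and 16.1% of all features), with a median log2 fold change of 0.81, or 0.92 with Gucy2g at its bound. The largest changes were those of the exchanger Slc24a4, also known from photoreceptors (5.71), the calcium sensors Vsnl1 (4.11) and Hpcal4 (4.03), and Rgs7bp (4.04), which anchors related RGS proteins. At P6 against P1, 6 of the 29 rose (6.30% of all features were higher), and at P15 against P6, 8 did (4.74%).

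For each of the 10 genes, the most similar other feature across the 27 libraries was found by Pearson correlation of log2(cpm + 1) over 11000 features with a Gene ID and a mean of at least 10 cpm. Grk1 was most like Pde6g, the inhibitory subunit of rod phosphodiesterase (r = 0.9985), and Gucy2e was most like Prph2, a structural protein of outer segment disks (r = 0.9975). The closest to Guca1b was Zan (r = 0.9977), to Slc24a1 Fam160a1 (r = 0.9977), to Rgs9bp Osbp2 (r = 0.9976), to Rcvrn Pex5l (r = 0.9974), to Gucy2f Herc3 (r = 0.9973), to Gnb5 Abca8b (r = 0.9973), to Rgs9 Atxn1 (r = 0.997) and to Guca1a A930006I01Rik (r = 0.9924). Such values describe a shared course over age, since libraries cluster by age and share depth, and 382 to 876 features exceeded r = 0.95 for each gene.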

How the data were processed

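RNA from whole retina was sequenced in 27 libraries. The authors used a SMARTer total RNA kit and single-end reads, aligned them to GRCm38 (mm10) with STAR, per the study's methods and the submitters' processing notes, and deposited 1 table of CPM values, with 38168 features and 1 column per library. The annotation and the use of strand are not given in the sources used here. Low values were whole multiples of 1 read, and 100% of values came out as whole reads (tolerance 0.02), which gave each library's reads counted in features. Groups and replicate numbers came from the labels.

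The 10 genes and the comparison lists were chosen with earlier results of these data known. All 10 genes are named, and of each other list up to 4 with the largest absolute change. 1 item of the lists is not reported here. In the fit (limma 3.58.1 with a mean-variance trend, R 4.3.3), log2(CPM + 1) of 31760 features was modeled on age over all 27 libraries, with two-sided tests and Benjamini-Hochberg adjustment over all features. P-values measure the spread between these libraries, mostly pools, which may be partly technical. edgeR 4.0.16 and DESeq2 1.42.0 on the recovered reads were alternatives, as were another pseudocount, filters, scaling, a replicate block, leaving out each library and, chosen after seeing the data, leaving out P60 replicates 1 and 2. edgeR was also run without E14 replicate 1, whose step could not be judged automatically. Same-numbered libraries did not deviate together (69 pairs, r from -0.129 to 0.167, median -0.002). Intervals cover counting error only. Scripts were tested on simulated data. Permutation tests used scipy 1.17.1 in Python 3.11.15. Promoters came from the RefSeq table and gene positions from the GENCODE annotation of GRCm38.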

Additional observations from a re-analysis of the deposited data

Results flagged for a closer look

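Dixon's test at the 95% level was run on the 10 genes and the 5 pair ratios in each group of 4 or more libraries, and 4 of 60 groups had a library far from the rest, where chance alone gives about 1 in 20. Gucy2f at P1 was 0.3392 cpm in replicate 3, 3 reads, against 0.882 to 0.981 cpm in the others, 7 or 8 reads. That gap rests on few reads. P15 replicate 4 accounted for the other 3: Gucy2f at 318.5 cpm, below the others, Rgs9bp at 1170.3 cpm, above them, and the log2 ratio of Grk1 to Rcvrn at 2.6785, above them. The changes called at P15 against P6 were called without this library too.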

How the results depend on the processing

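The calls of all 10 genes between mature and embryonic retina, at P6 against P1 and at P15 against P6 held in every alternative run. The other counts were small and depended on settings. At E17 against E14 the count of 1 became 5 with no minimum fold, 4 with a pseudocount of 0.1, 4 by edgeR, 3 by edgeR on the other 26 libraries, 4 by DESeq2 and 1 to 2 over the fits without 1 library (2 without E14 replicate 3). At P1 against E17 the count of 3 became 7 with no minimum fold, 5 with the other pseudocount and 4 without E17 replicate 2. At P28 against P15 the count of 1 became 2 with no minimum fold and 0 with the other pseudocount. At P60 against P28 the count of 0 became 2 with no minimum fold. Over all features, the counts of calls were, with the lowest and highest over the alternatives in parentheses, mature against embryonic 9832 (4916 to 23951), E17 against E14 1143 (639 to 3359), P1 against E17 585 (306 to 2924), P6 against P1 4141 (2206 to 12178), P15 against P6 2558 (1329 to 10610), P28 against P15 122 (42 to 864) and P60 against P28 144 (3 to 4100). Without P60 replicates 1 and 2 the last was 1165.

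Over the fits without 1 library, the change of the log2 ratio of Grk1 to Rcvrn from P6 to mature retina ran from 0.4308 to 0.6217 and passed the threshold without P15 replicate 1 (0.5519) or 3 (0.5516), and that of Rgs9 to Gnb5 from P15 to P60 ran from -0.2092 to -0.1371 and passed without P15 replicate 1. The adjusted p of Gucy2f at P1 against E17 was 0.035 and lay over 0.05 in 10 of 38 alternatives, up to 0.18, and that of Gnb5 at E17 against E14 lay over 0.05 in 7, up to 0.188. Signs turned in differences that had not passed the test. For E17 against E14, edgeR on the other 26 libraries gave 0.0749 for Gucy2f and 2.844 for Guca1a, and leaving out 1 library gave -0.2575 to 0.035 for Gucy2f, -0.1676 to 0.125 for Guca1a and -0.4055 to 0.0467 for Guca1b. For P1 against E17, Guca1b ran from -0.1644 to 0.0358 in such fits. For P60 against P28, Rgs9 was at 0.0455 with median-of-ratios scaling, 0.0334 by edgeR, 0.0329 by edgeR on 26 libraries, 0.0468 by DESeq2 and -0.0451 to 0.0001 without 1 library. Rgs9bp was at 0.0661, 0.0588, 0.0583, 0.0712 and -0.0601 to 0.0315 in the same order. The cause of these changes was not tested.

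Replicate numbers gave no sign of pairing the libraries. With a replicate block the counts among the 10 genes stayed at 10, 1, 3, 10, 10, 1 and 0, Rgs9bp at P60 against P28 was at 0.044, and the adjusted p of Guca1a and Grk1 there was 0.077 and 0.06. Embryonic values of Gucy2f, Guca1a, Guca1b and Rcvrn rest on at most 12 reads in a library, which limits any statement on their change before P6.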
